A study of Mus musculus with 32 samples.

Results

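The 10 genes described here encode Toll-like receptors and coreceptors, and were measured in mouse macrophage lines. The receptor of these lines for colony stimulating factor-1 (CSF-1) either carried or lacked the tyrosine Tyr-721. The genes are Tlr1, Tlr2, Tlr4, Tlr6, Tlr7, Tlr8, Tlr9 and Tlr13, with the coreceptors Cd14 and Ly96. The rule that defines the set lists gene names, drawn up with earlier results of these data known, and they are 10 of the 19938 genes that could be tested. Each had 1 probe set that named no other gene, so no choice among probe sets was needed. Signals came from 32 Affymetrix Mouse Gene 1.0 ST arrays in 16 groups of 2 arrays, which the series text calls biological replicates and the sample titles number I and II. Nothing in the labels says whether the 2 came from separate cultures, so the p-values measure the spread between these arrays.

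The lines are WT, Y721F, 3ABY721 and 3AB, each of whose names the labels precede with M-/- and a dot. As background, M-/- macrophages lack their own CSF-1 receptor gene, and each line carries an introduced receptor. Per the labels, WT and 3ABY721 expressed a receptor with Tyr-721, and Y721F and 3AB a receptor without it. Whether the 3ABY721 and 3AB receptors differed from those of WT and Y721F at other sites is not described here. The 3AB line is therefore not read as a repeat of Y721F. All 4 lines shared the M-/- background and were cultured with human recombinant CSF-1. For the time course, cells of WT and Y721F were deprived of CSF-1 overnight and then given it for 0, 20, 60 or 180 min. In the steady-state arrays, all 4 lines were either starved of CSF-1 or grown in it constantly. Each receptor was represented by 1 line, so the receptor and whatever else set its line apart cannot be told apart. These are bulk RNA samples, in which fewer cells expressing a gene and less RNA per cell cannot be told apart either.

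Toll-like receptors recognise conserved microbial molecules and lipids or nucleic acids released by microbes. Tlr1, Tlr2, Tlr4 and Tlr6 act at the cell surface, Tlr2 in a complex with Tlr1 or Tlr6 to bind lipopeptides, and Tlr4 with the secreted protein MD-2 (encoded by Ly96) to bind lipopolysaccharide that CD14 delivers. Tlr7, Tlr8, Tlr9 and Tlr13 act in endosomes, where Tlr7 and Tlr8 sense RNA fragments, Tlr9 unmethylated CpG DNA and Tlr13 bacterial ribosomal RNA, and the membrane protein Unc93b1 carries these receptors there. Macrophages are a main site of expression of both groups, and macrophages depend on CSF-1 for survival.

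The values are log2 signals, so a difference of 1 is a 2-fold change. Array medians over all probe sets lay between 5.97 and 6.22, and both arrays of a group correlated at 0.986 to 0.996 across genes. All 10 members had means above 4.87, the 20th percentile of genes, and Tlr1 lay under it on 5 arrays, all of Y721F (4.41 to 4.84). The macrophage genes Csf1r (12.72 to 13.41), Cd68 (12.58 to 13.27), Lyz2 (11.25 to 13.66), Adgre1 (11.29 to 12.82) and Spi1 (10.60 to 12.01) were high on every array, while Itgam (10.10 to 11.47), Fcgr1 (5.99 to 11.92), Mertk (5.43 to 10.26) and Aif1 (5.16 to 8.76) varied more or were lower. Csf1r encodes the CSF-1 receptor, which was introduced into these lines, so its signal says nothing about cell type. The mean level of the 9 macrophage markers used, Csf1r among them, ranged from 9.59 in grown Y721F to 11.54 in starved WT. The mean level over markers of other cells stayed at 5.15 to 5.52 for 8 dendritic cell markers, 4.73 to 5.06 for 6 lymphocyte markers, 4.93 to 5.18 for 10 granulocyte and mast cell markers and 5.66 to 6.41 for 8 fibroblast markers.

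Some of the genes lie side by side in the genome. In the RefSeq gene table Tlr1 and Tlr6 are neighbours on chromosome 5 and Tlr7 and Tlr8 are neighbours on the X chromosome, which also holds Tlr13. RefSeq promoter sequences were given for 6 of the 10 members, and the 250 bases before the start are shown for 4 of them. Tlr1 and Tlr6 are shown because these neighbours differed between lines, and Tlr8 and Tlr9 because their signals were lower in grown than in starved cells. All are read 5′ to 3′ on the gene's strand in GRCm38.p6, with motif matches in capitals. The motifs searched on both strands were GAGGAA, the core bound by the macrophage transcription factor PU.1, TGANTCA, the site bound by AP-1, and the NF-κB consensus. They were chosen after the sequences were seen.
Tlr1, chr5:64933559-64933808, minus strand: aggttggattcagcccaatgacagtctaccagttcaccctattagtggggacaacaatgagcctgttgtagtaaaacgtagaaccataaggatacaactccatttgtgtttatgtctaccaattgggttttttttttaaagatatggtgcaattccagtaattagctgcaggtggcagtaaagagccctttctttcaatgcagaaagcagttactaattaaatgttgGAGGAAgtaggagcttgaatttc
Tlr6, chr5:64960049-64960298, minus strand: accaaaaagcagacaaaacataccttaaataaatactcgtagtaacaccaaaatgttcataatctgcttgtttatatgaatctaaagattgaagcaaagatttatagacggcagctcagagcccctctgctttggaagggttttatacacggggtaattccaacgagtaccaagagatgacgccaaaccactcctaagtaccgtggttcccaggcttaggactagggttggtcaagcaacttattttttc
Tlr8, chrX:167264330-167264579, minus strand: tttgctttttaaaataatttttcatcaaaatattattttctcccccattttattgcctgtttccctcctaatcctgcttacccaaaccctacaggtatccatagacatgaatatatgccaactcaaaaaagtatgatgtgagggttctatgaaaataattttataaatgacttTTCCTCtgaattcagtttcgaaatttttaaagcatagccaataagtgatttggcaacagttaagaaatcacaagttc
Tlr9, chr9:106222348-106222597, plus strand: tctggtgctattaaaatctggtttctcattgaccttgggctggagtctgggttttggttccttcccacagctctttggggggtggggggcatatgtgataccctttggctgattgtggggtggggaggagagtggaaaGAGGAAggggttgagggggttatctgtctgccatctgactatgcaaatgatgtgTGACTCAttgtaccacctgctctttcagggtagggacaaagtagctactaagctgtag

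Positions are those of a match's first base relative to the start, the base just before it being -1. The Tlr1 window held a GAGGAA match at -23. The Tlr8 window held one on the opposite strand, written here as TTCCTC, at -77. The Tlr9 window held GAGGAA at -112 and a TGANTCA match at -58, and the Tlr6 window held none of the 3 motifs. Tlr1 and Tlr6 each had 2 listed starts, and for these members only the window of the most upstream start was read. Of the members not shown, Tlr13 had GAGGAA at -83 and Tlr2 an NF-κB consensus match at -172. Over 32851 promoter windows of the same length, 23.3% held GAGGAA, 6.75% the AP-1 site and 5.001% the NF-κB consensus. The GC content was 39.2% in Tlr1, 40.4% in Tlr6, 31.2% in Tlr8, 44.4% in Tlr13, 50.4% in Tlr9 and 62.8% in Tlr2, against a median of 52.4% over all windows.

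CSF-1 given back to starved cells raised Cd14, and by 180 min Tlr6 and Tlr8 were lower in WT. A gene was called changed where limma's adjusted p over all 19938 genes was under 0.05 and the fold was above 1.5. In WT this gave 5 member calls over 3 times: Cd14 higher at 20, 60 and 180 min, and Tlr6 and Tlr8 lower at 180 min. The share of all genes called either way was 0.16% at 20 min, 0.632% at 60 min and 2.16% at 180 min, and 0.431%, 3.74% and 7.81% when the array number was a block in the fit.

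Cd14, the coreceptor that hands lipopolysaccharide to Tlr4, read 10.70 and 11.07 on the WT arrays at 0 min, 12.06 and 12 at 20 min, 12.07 and 12.13 at 60 min, and 12.11 and 12.21 at 180 min. Every stimulated array was above both starved arrays, and the level was already reached at 20 min. The difference from 0 min was 1.15 (SE 0.19, adjusted p = 0.0431) at 20 min, 1.22 (SE 0.19, adjusted p = 0.0141) at 60 min and 1.28 (SE 0.19, adjusted p = 0.0134) at 180 min, n = 2 arrays a group. With the array number as a block within the line, the 3 adjusted p-values were 0.00176, 0.00056 and 0.000632. The call at 20 min was lost when any 1 of its 4 arrays was left out (adjusted p up to 0.576) and under quantile normalization. The call at 60 min was lost without array I at 0 min or array I at 60 min, and the call at 180 min without array I at 0 min or array II at 180 min, with adjusted p up to 0.191 and 0.187.

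In Y721F the same gene read 10.82 and 10.18 at 0 min, 11.09 and 10.98 at 20 min, 11.46 and 11.18 at 60 min, and 11.37 and 11.27 at 180 min. Here too all stimulated arrays were above both starved ones, but every one of them was below every stimulated WT array. The differences from 0 min were 0.54 (adjusted p = 0.695), 0.82 (adjusted p = 0.198) and 0.82 (adjusted p = 0.0811), each with SE 0.19, and were not called. With the array number as a block those at 60 and 180 min were called (adjusted p = 0.0169 and 0.00806). The test of the difference between the lines' responses did not call Cd14 at any time, the largest gap being -0.61 at 20 min (95% interval -1.19 to -0.03, adjusted p = 1). Without the block that test called 0 of the 19938 genes at each time, so the missing call is no result about Cd14 in particular.

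**Figure D1:**
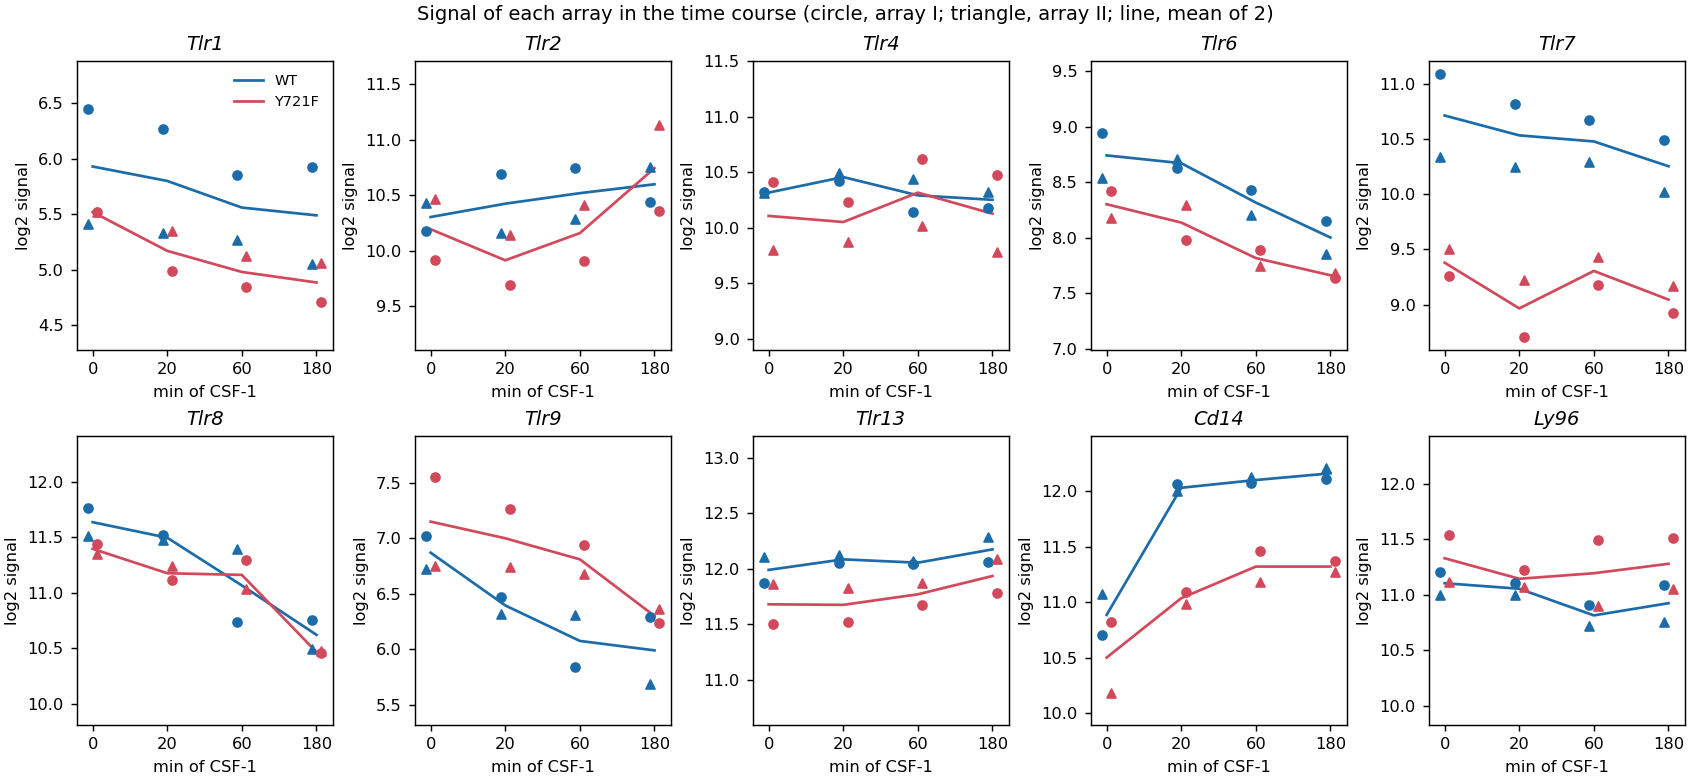
Log2 signal of the 10 genes on each time course array against minutes of CSF-1, at evenly spaced ticks, with circles for array I, triangles for array II and lines through the means of 2 arrays. Cd14 rises by 20 min in WT, Tlr6 and Tlr8 end lower at 180 min in WT, and Tlr7 in Y721F stays at 8.71 to 9.50, under the 10.02 to 11.09 of WT.

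Tlr6, the surface receptor that pairs with Tlr2 for diacylated lipopeptides, fell at 180 min in WT. Its arrays read 8.94 and 8.54 at 0 min, 8.63 and 8.71 at 20 min, 8.43 and 8.20 at 60 min, and 8.15 and 7.85 at 180 min. The arrays at 180 min were below both at 0 min, and the difference was -0.74 (SE 0.17, adjusted p = 0.0438). In Y721F Tlr6 read 8.42 and 8.18 at 0 min and 7.64 and 7.68 at 180 min, a difference of -0.64 (SE 0.17) whose adjusted p was 0.109, and 0.0194 with the block. Its neighbour Tlr1, which pairs with Tlr2 for triacylated lipopeptides, read 6.45 and 5.41 at 0 min and 5.93 and 5.05 at 180 min in WT, where the 2 arrays of a time stood further apart than the times did. In Y721F Tlr1 read 5.52 on both arrays at 0 min and 4.71 and 5.06 at 180 min, a difference of -0.64 (SE 0.39, adjusted p = 0.565), called only with the block (adjusted p = 0.0135).

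Among the endosomal receptors, Tlr8 fell in WT at 180 min. Its WT arrays read 11.76 and 11.51 at 0 min, 11.52 and 11.47 at 20 min, 10.74 and 11.39 at 60 min, and 10.75 and 10.49 at 180 min. Array I was low from 60 min on and array II only at 180 min, where both lay below the arrays at 0 min (difference -1.02, SE 0.19, adjusted p = 0.0237). In Y721F Tlr8 read 11.44 and 11.35 at 0 min and 10.46 and 10.47 at 180 min, a difference of -0.93 (SE 0.19) whose adjusted p was 0.0669, and 0.0136 with the block. The WT calls of Tlr6 and Tlr8 at 180 min were both lost when any 1 of their 4 arrays was left out, with adjusted p up to 0.354 and 0.235.

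Tlr9, the CpG DNA receptor, read 7.02 and 6.72 at 0 min, 6.47 and 6.32 at 20 min, 5.84 and 6.31 at 60 min, and 6.29 and 5.69 at 180 min in WT. All 6 stimulated arrays were below both starved ones. The difference at 180 min was -0.88 (SE 0.28, adjusted p = 0.139), called only with the block (adjusted p = 0.0262). The Y721F value was -0.85 (SE 0.28, adjusted p = 0.195 without and 0.0393 with the block), from 7.55 and 6.75 at 0 min to 6.24 and 6.36 at 180 min. No member was called in Y721F by limma without the block, where 7 of 30 member and time pairs had an unadjusted p under 0.05, and 6 were called with it. All genes were called at a rate of 0.0802%, 0.176% and 0.261% at 20, 60 and 180 min without the block, and 0.246%, 0.853% and 5.39% with it.

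The other members were not called at any time in either line. Tlr4, the lipopolysaccharide receptor, read between 10.14 and 10.49 on the 8 WT arrays and between 9.78 and 10.62 on the 8 Y721F arrays. Its 3 differences from 0 min lay between -0.07 and 0.14 in WT and between -0.06 and 0.21 in Y721F, each with an SE of 0.27. Ly96 read 10.72 to 11.21 in WT and 10.90 to 11.54 in Y721F, and Tlr13 11.87 to 12.29 and 11.50 to 12.09. Tlr7 differed from 0 min by -0.18, -0.235 and -0.46 in WT at 20, 60 and 180 min, each with SE 0.28. At 180 min its adjusted p was 0.562, and 0.0193 with the block, at a fold of 1.38 that stayed under 1.5. In Y721F the Tlr7 differences were -0.415, -0.075 and -0.335 with the same SE. Tlr2 at 180 min read 10.44 and 10.76 in WT against 10.18 and 10.43 at 0 min, and 10.36 and 11.13 in Y721F against 9.92 and 10.47, so the times overlapped in Y721F and lay close in WT.

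Genes that Toll-like receptor signalling is known to induce were followed as a list of 23. In WT 5 of 23 rose at 20 min, 2 at 60 min and 3 at 180 min, and none fell. With the block the counts were 9, 8 and 4 higher, and Saa3 was called lower at 180 min (-0.77, adjusted p = 0.0429). The cyclooxygenase gene Ptgs2 rose by 4.91 (SE 0.63, adjusted p = 0.0085) at 20 min. Il1b, which encodes a cytokine, rose by 3.76 at that time (SE 0.43, adjusted p = 0.00376). The chemokine gene Cxcl2 rose by 3.41 (SE 0.47, adjusted p = 0.012). The list's median differences at 20, 60 and 180 min were 0.40, 0.125 and 0.285, against 0, -0.015 and -0.005 over all genes. In Y721F none of the 23 was called at any time (9, 7 and 5 had an unadjusted p under 0.05 at 20, 60 and 180 min), and 4, 3 and 5 rose with the block. The list's medians in Y721F were 0.33, 0.36 and 0.335, against 0.02, -0.005 and -0.01 over all genes. Without the block, the test of the difference between the lines' responses called none of the 23 and 0% of all genes at each time. With the block it called 1 of the 23 lower in Y721F at 20 min. Of the 19 measured adaptors and kinases the one call was Ticam2, the adaptor that links Tlr4 to the interferon branch, which fell by 0.94 in WT at 180 min (SE 0.21, adjusted p = 0.0404). Of 10 genes of endosomal processing and transport, Slc15a4, a peptide and histidine transporter of endolysosomes, fell by 0.89 in WT at 180 min (SE 0.18, adjusted p = 0.0317). With the block 1 adaptor or kinase was higher and 1 lower in WT at 60 min and 1 was lower in Y721F at 180 min, and 1 endosomal gene was lower in WT at 60 min and 1 higher at 180 min besides Slc15a4. The macrophage marker Mertk fell by 1.92 in WT and 1.69 in Y721F at 180 min (adjusted p = 0.0087 and 0.0364), and its part in the receptor results was not tested.

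The steady-state arrays compared cells grown in CSF-1 with starved cells of the same line. Tlr8 was lower in grown WT, Y721F and 3ABY721 cells, Tlr9 in grown WT and 3AB cells, and Tlr7 and Tlr2 in grown Y721F cells. These 7 calls among 40 member and line pairs were all toward lower signal. Members called were 2 of 10 in WT, 3 in Y721F, 1 in 3ABY721 and 1 in 3AB, where 5.32%, 4.94%, 1.41% and 0.687% of all genes were called either way and 3.01%, 1.46%, 0.672% and 0.256% were called lower. In Y721F the split of all calls moved with scaling, from 693 higher and 292 lower to 511 and 369 under quantile normalization.

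Tlr8 read 10.88 and 11.17 in starved WT and 9.14 and 9.78 in grown WT. In Y721F it read 10.07 and 10.36 when starved and 8.24 and 7.52 when grown, the lowest arrays of the series for this gene. In 3ABY721 it read 10.67 on both starved arrays and 9.54 and 9.61 on the grown ones, and in 3AB 10.89 and 10.77 against 10.19 and 9.93. In all 4 lines both grown arrays lay below both starved arrays. The differences were -1.57 in WT (SE 0.23, adjusted p = 0.00151), -2.34 in Y721F (SE 0.23, adjusted p = 6.18e-05), -1.10 in 3ABY721 (SE 0.23, adjusted p = 0.0262) and -0.77 in 3AB (SE 0.23, adjusted p = 0.193). The 3ABY721 call was lost when any 1 of its 4 arrays was left out (adjusted p 0.178 to 0.206), while the WT and Y721F calls were kept in each such fit.

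Tlr9 read 6.95 and 7.06 in starved WT and 5.71 and 5.95 in grown WT, a difference of -1.18 (SE 0.16, adjusted p = 0.000933). In 3AB it read 7.67 and 7.82 when starved and 6.92 and 6.89 when grown, a difference of -0.84 (SE 0.16, adjusted p = 0.03) that was lost when any 1 of its 4 arrays was left out (adjusted p up to 0.325), under quantile normalization and with all 32 arrays in one fit. In Y721F the starved arrays read 6.44 and 6.46 and the grown ones 6.49 and 6.01, so the conditions overlapped (difference -0.20, SE 0.16, adjusted p = 0.516). In 3ABY721 the difference was -0.33 (SE 0.16, adjusted p = 0.436), from 6.79 and 6.62 to 6.50 and 6.25.

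Tlr7 in Y721F read 7.28 and 7.22 when starved and 6.56 and 5.87 when grown, a difference of -1.04 (SE 0.18, adjusted p = 0.00348) that was kept whichever array was left out (-1.38 to -0.69). In the other lines the difference in Tlr7 was -0.47 in WT, -0.27 in 3ABY721 and -0.18 in 3AB, none of them called. Tlr2, the shared partner of Tlr1 and Tlr6, read 9.99 and 10.10 in starved Y721F and 9.54 and 8.66 in grown Y721F. Its difference of -0.95 (SE 0.25, adjusted p = 0.0409) was lost without array I or II of starved Y721F or array II of grown Y721F (-1.39 to -0.51, adjusted p up to 0.276), and with all 32 arrays in one fit. In 3ABY721 Tlr2 read 11.25 and 11 when starved and 10.30 and 10.25 when grown, a difference of -0.85 (SE 0.25) with an adjusted p of 0.139.

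Cd14 was not called between grown and starved cells in any line. It read 10.07 and 10.29 in starved Y721F and 10.85 and 11.17 in grown Y721F, a difference of 0.83 (SE 0.25, adjusted p = 0.0642). In the other 3 lines the difference was 0.23 to 0.45 with the same SE. Tlr4 differed by -0.31 to 0.09 over the 4 lines (SE 0.16), Tlr13 by -0.43 to 0.08 (SE 0.15), and Ly96 by -0.39 to 0.14 (SE 0.26), none of them called. Tlr1 and Tlr6 were not called in any line either.

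**Figure D2:**
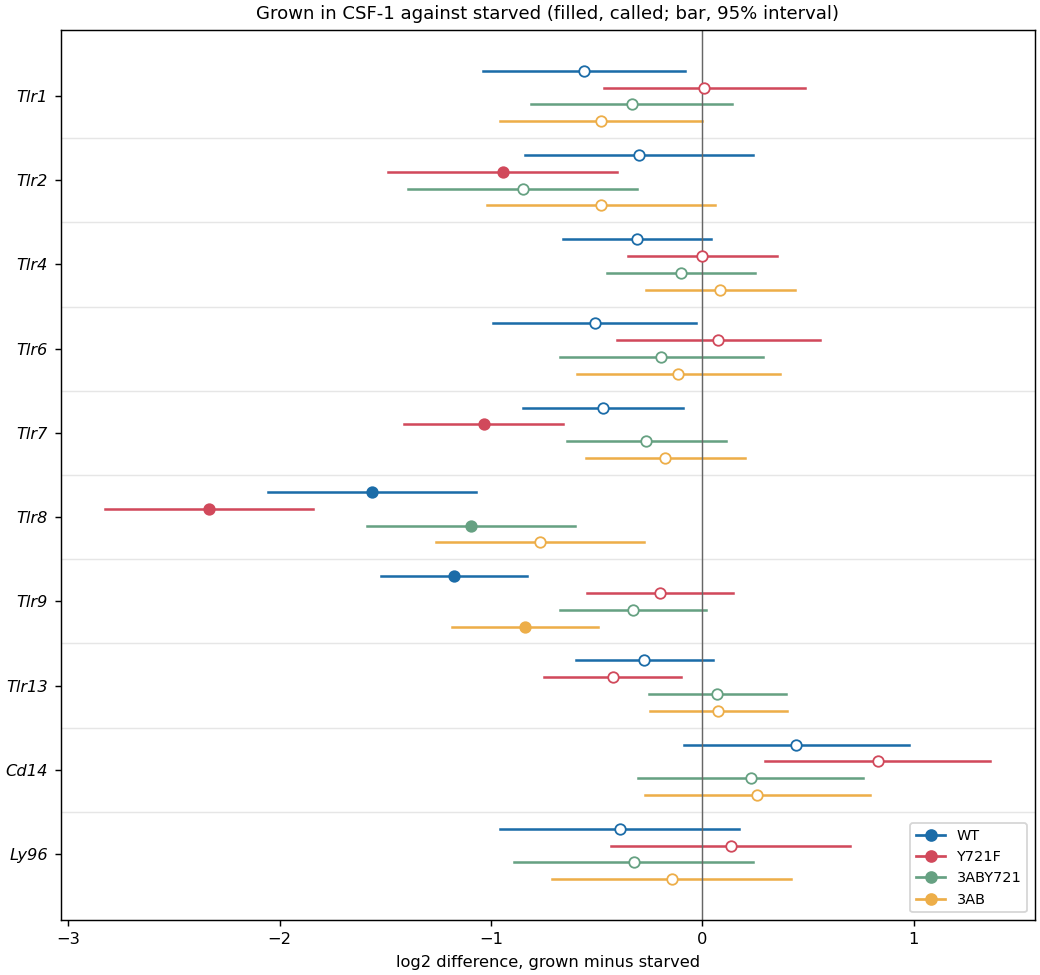
Log2 difference of grown minus starved cells for each gene (rows) in each of 4 lines (colours), with 95% intervals from the limma fit and filled points where the difference was called. Tlr8 lies below 0 in all 4 lines, from -2.34 in Y721F to -0.77 in 3AB, whereas Tlr4 and Ly96 intervals include 0 throughout.

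Tests of whether the growth effect itself differed between lines called no member. The largest gaps were for Tlr8 between 3AB and Y721F (1.57, SE 0.33, adjusted p = 0.156) and for Tlr9 between Y721F and WT (0.98, SE 0.23, adjusted p = 0.235). Of the 40 tests 9 had an unadjusted p under 0.05, and 0.0903% of all genes were called for Y721F minus WT, 0.00502% for 3AB minus 3ABY721, 0% for 3ABY721 minus WT and 0.0752% for 3AB minus Y721F.

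Unc93b1, which carries the nucleic acid receptors to endosomes, fell with growth in 3 of the 4 lines. It read 11.98 and 11.99 in starved and 10.61 and 11.22 in grown WT, a difference of -1.07 (SE 0.17, adjusted p = 0.00229). It changed by -0.85 in Y721F (adjusted p = 0.00872) and -0.75 in 3ABY721 (adjusted p = 0.0375), while the difference in 3AB was -0.58 (adjusted p = 0.179). It was the one gene called among 8 chaperones and other coreceptors in WT and in 3ABY721, and in Y721F the chaperone gene Cnpy3 fell as well, by 0.61 (adjusted p = 0.0305). Of the 10 endosomal processing genes 2 fell in WT and 2 in Y721F, among them in both lines Pld4, an endosomal exonuclease that degrades nucleic acid ligands (-0.77, adjusted p = 0.00748 in WT and -0.95, adjusted p = 0.00174 in Y721F). The median differences of that list were -0.39 in WT and -0.22 in Y721F, against -0.03 and 0.01 over all genes. Over all genes 3.01% were called lower in WT and 1.46% in Y721F. Not every list went down. Of the 23 inducible targets Ptgs2 was higher in grown WT and 3ABY721 and the chemokine genes Ccl3 and Ccl4 in grown Y721F, while Saa3 was lower in grown WT. Of the 19 adaptors and kinases only Irf5 was called, lower in grown Y721F. These few calls are no result about their lists. The macrophage marker Mertk fell with growth in all 4 lines (-2.82 in Y721F, -1.79 in WT, -1.25 in 3AB and -1.22 in 3ABY721), and Lyz2 fell in 3 (-1.86 in Y721F, -0.83 in 3ABY721 and -0.70 in WT). The part of these marker changes in the receptor results was not tested.

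The same arrays compared lines under one condition. The widest differences among the members were those of Tlr7 in Y721F and Tlr1 in 3AB. In starved cells 5 members were lower in Y721F than in WT (Tlr1, Tlr6, Tlr7, Tlr8 and Cd14), and in grown cells 4 were (Tlr2, Tlr7, Tlr8 and Tlr13). None was higher. Of all genes 11.1% were called either way in starved cells and 7.88% in grown cells, with 7.66% and 4.94% lower in Y721F. The split of these calls moved with scaling, from 692 higher and 1527 lower to 714 and 991 under quantile normalization in starved cells, and from 587 and 985 to 707 and 767 in grown cells.

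Tlr7, an endosomal receptor for single-stranded RNA, read 10.32 and 10.36 in starved WT against 7.28 and 7.22 in starved Y721F. In grown cells it read 9.97 and 9.77 in WT against 6.56 and 5.87 in Y721F. The 4 steady-state Y721F arrays (5.87 to 7.28) lay below all 12 arrays of the other lines (9.77 to 10.36). The difference was -3.09 in starved cells (a fold of 8.52, SE 0.18, adjusted p = 6.61e-08) and -3.66 in grown cells (a fold of 12.6, SE 0.18, adjusted p = 1.21e-08). Leaving out any 1 array moved these only to between -3.12 and -3.06 and between -4.00 and -3.31. In 3AB, the other line without Tyr-721, Tlr7 read 10.15 and 10.22 when starved and 10.08 and 9.94 when grown, so that it differed from 3ABY721 by 0.13 (95% interval -0.25 to 0.50) and 0.22 (-0.16 to 0.59).

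The gap between Y721F and WT in Tlr7 was not the same in both experiments. At 0 min of the time course, where both lines had been starved overnight, WT read 11.09 and 10.34 and Y721F 9.26 and 9.50. How long the steady-state cells were starved is not given here. That difference was -1.34 (SE 0.28, adjusted p = 0.0606, and 0.031 with the array number as a block, where 2.01% of all genes were called), and limma called no member at 0 min without the block, 2 of 10 having an unadjusted p under 0.05 and 0.727% of all genes being called. In one fit of all 32 arrays the starved steady-state gap minus the 0 min gap was -1.76 (SE 0.35, adjusted p = 0.0144), a comparison added after the data were seen, for which 1.64% of all genes were called. The call was lost in 5 of the 8 fits that left out 1 array each (array II of WT at 0 min, array I or II of Y721F at 0 min, or array II of starved WT or Y721F), with adjusted p up to 0.0897. Over all 8 time course arrays of each line, at every time, Tlr7 read 10.02 to 11.09 in WT and 8.71 to 9.50 in Y721F, with no overlap.

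Tlr8, the neighbour of Tlr7, was also lower in Y721F. With the arrays given above, it differed from WT by -0.81 in starved cells (SE 0.23, adjusted p = 0.027) and by -1.58 in grown cells (SE 0.23, adjusted p = 0.000519). In both conditions both Y721F arrays were below both WT arrays. The starved call was lost without array II of WT or array I or II of Y721F (-0.96 to -0.67, adjusted p up to 0.167) and under quantile normalization, and the grown call was kept in each such fit. At 0 min of the time course Tlr8 differed by only -0.24 (SE 0.19). Tlr13 was lower in grown Y721F, where it read 10.58 and 10.61 against 11.06 and 11.34 in WT. The difference of -0.61 (SE 0.15, adjusted p = 0.0206) was lost without array II of WT or array I or II of Y721F (-0.75 to -0.47, adjusted p up to 0.109) and under quantile normalization.

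Tlr9 went neither way consistently in Y721F. It differed from WT by -0.56 (SE 0.16, adjusted p = 0.0301) in starved cells, a fold of 1.47 that stayed under the threshold of 1.5, and by 0.42 (SE 0.16, adjusted p = 0.118) in grown cells. Tlr3, the endosomal receptor for double-stranded RNA measured with Tlr12 as 1 of 2 further Toll-like receptors, was lower in Y721F in both conditions. It read 8.24 and 8.78 in starved WT against 7.31 and 7.10 in starved Y721F (-1.31, SE 0.24, adjusted p = 0.00246), and 8.12 and 8.39 against 7.02 and 6.11 in grown cells (-1.69, SE 0.24, adjusted p = 0.000454).

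Of the surface receptors, Tlr1 and Tlr6 were lower in starved Y721F. Tlr1 read 5.78 and 6.22 in starved WT and 4.41 and 5.20 in starved Y721F, a difference of -1.20 (SE 0.22, adjusted p = 0.00251) kept whichever array was left out. In grown cells the difference was -0.63 (SE 0.22) with an adjusted p of 0.0921, from 5.45 and 5.43 to 4.83 and 4.80. Both grown Y721F arrays and array I of starved Y721F lay under 4.87, the 20th percentile of genes, so the sizes of these differences rest on a dim signal in Y721F. Tlr6 read 8.83 and 9.06 in starved WT and 8 and 7.83 in starved Y721F. Its difference of -1.03 (SE 0.22, adjusted p = 0.00694) was lost without array II of either line (adjusted p up to 0.0609). In grown cells it read 8.16 and 8.71 against 7.70 and 8.28, which overlapped (-0.45, SE 0.22, adjusted p = 0.237).

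Tlr2 read 10.07 and 10.81 in starved WT and 9.99 and 10.10 in starved Y721F, which overlapped. In grown cells it read 10.29 and 9.99 in WT and 9.54 and 8.66 in Y721F, both below. The difference of -1.04 (SE 0.25, adjusted p = 0.0176) was lost without array I of WT or array II of Y721F (-1.48 to -0.60, adjusted p up to 0.208). Tlr4 differed by -0.51 in starved cells (SE 0.16, adjusted p = 0.046), a fold under 1.5, and by -0.20 in grown cells (SE 0.16, adjusted p = 0.498).

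Cd14 read 10.66 and 11.73 in starved WT and 10.07 and 10.29 in starved Y721F. Both Y721F arrays were below both WT arrays, which themselves stood further apart than those of any other steady-state group for this gene. The difference of -1.02 (SE 0.25, adjusted p = 0.0132) was lost without array II of WT or array I of Y721F (-1.55 to -0.48, adjusted p up to 0.129). In grown cells the difference was -0.63 (SE 0.25, adjusted p = 0.128), from 11.46 and 11.82 to 10.85 and 11.17. Ly96 was not called between any pair of lines. It read 9.05 and 9.71 in starved WT and 9.49 and 9.59 in starved Y721F, with the Y721F arrays inside the range of WT. Grown Y721F read 9.27 and 10.08 against 8.74 and 9.24 in grown WT, so both Y721F arrays were above both WT arrays. That difference was toward higher signal in Y721F (0.685, SE 0.26, adjusted p = 0.119 by limma) and was not called.

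**Figure D3:**
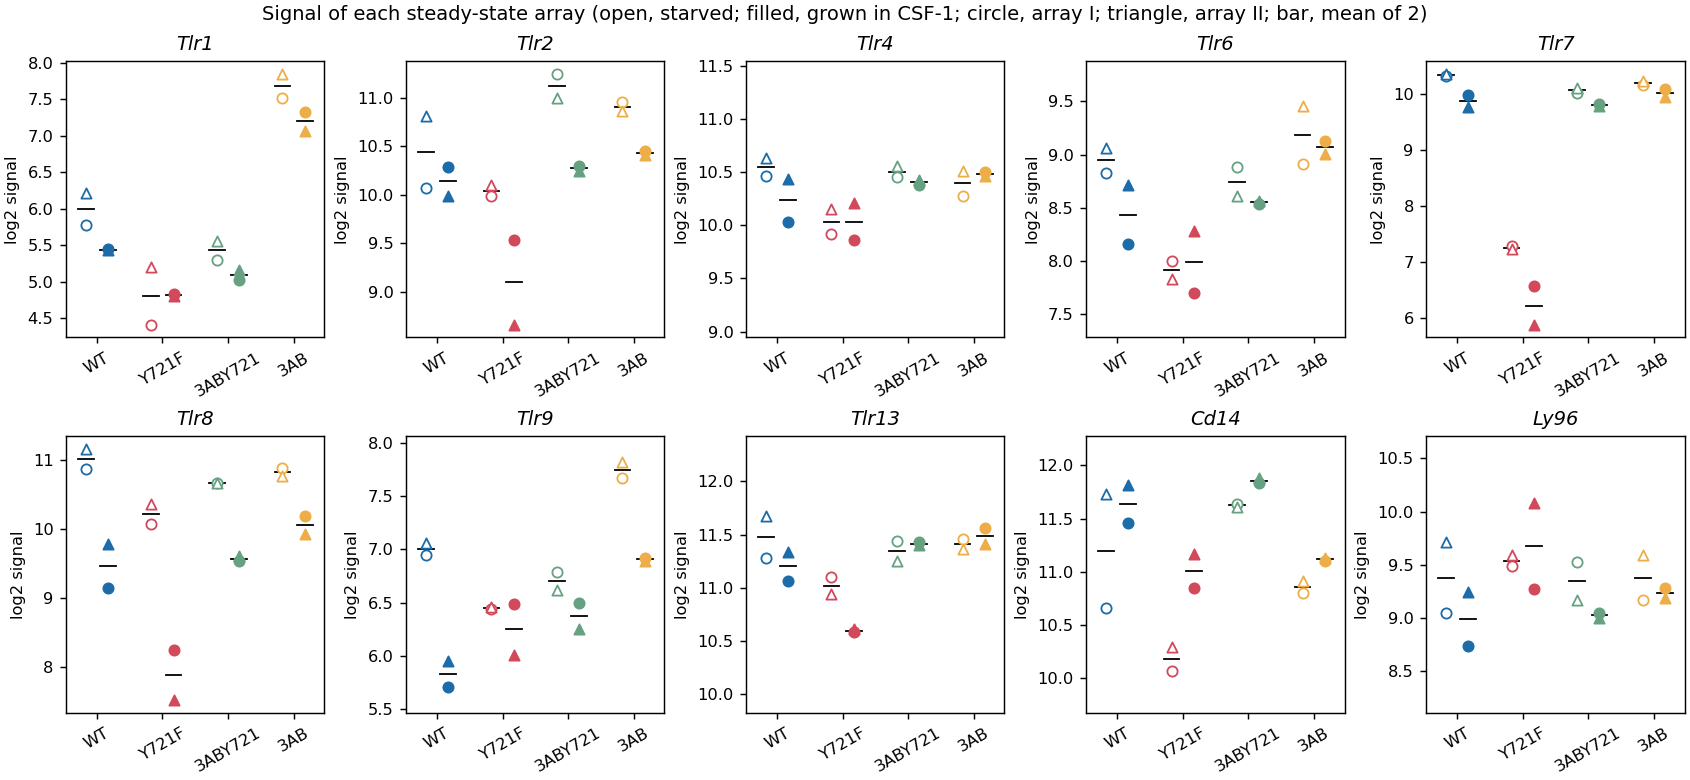
Log2 signal of the 10 genes on each steady-state array by line, with open symbols for starved and filled for grown cells, circles for array I, triangles for array II and bars for means of 2 arrays. Tlr7 is low in Y721F alone (5.87 to 7.28, others 9.77 to 10.36) and Tlr1 is high in 3AB alone (7.07 to 7.85, others 4.41 to 6.22).

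The second pair of lines, 3AB without and 3ABY721 with Tyr-721, differed in Tlr1 and Tlr9. Tlr1 read 7.51 and 7.85 in starved 3AB against 5.30 and 5.56 in starved 3ABY721, and 7.33 and 7.07 against 5.03 and 5.16 in grown cells. The 4 arrays of 3AB (7.07 to 7.85) lay above all 12 arrays of the other lines (4.41 to 6.22). The difference was 2.25 in starved cells (4.76-fold, SE 0.22, adjusted p = 0.000164) and 2.11 in grown cells (4.3-fold, SE 0.22, adjusted p = 0.000163), kept whichever array was left out. Its neighbour Tlr6 differed by 0.44 (SE 0.22, adjusted p = 0.649) and 0.52 (SE 0.22, adjusted p = 0.394), uncalled, with 3AB at 8.91 to 9.46 and 3ABY721 at 8.54 to 8.88. Whether the probes of Tlr1 and Tlr6, which are related genes, also read each other's RNA was not tested.

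Tlr9 read 7.67 and 7.82 in starved 3AB against 6.79 and 6.62 in starved 3ABY721. The difference of 1.04 (SE 0.16, adjusted p = 0.00622) was lost without array II of either line (adjusted p up to 0.116) and with all 32 arrays in one fit. In grown cells it was 0.53 (SE 0.16, adjusted p = 0.178). No other member was called, in a comparison where 0.617% of all genes were called in starved and 1.18% in grown cells, with 0.246% and 0.542% higher in 3AB. Cd14 differed by -0.77 and -0.74 (SE 0.25) and missed the threshold in both conditions (adjusted p = 0.305 and 0.233), although no array overlapped between 3AB (10.80 to 11.13) and 3ABY721 (11.61 to 11.88).

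**Figure D4:**
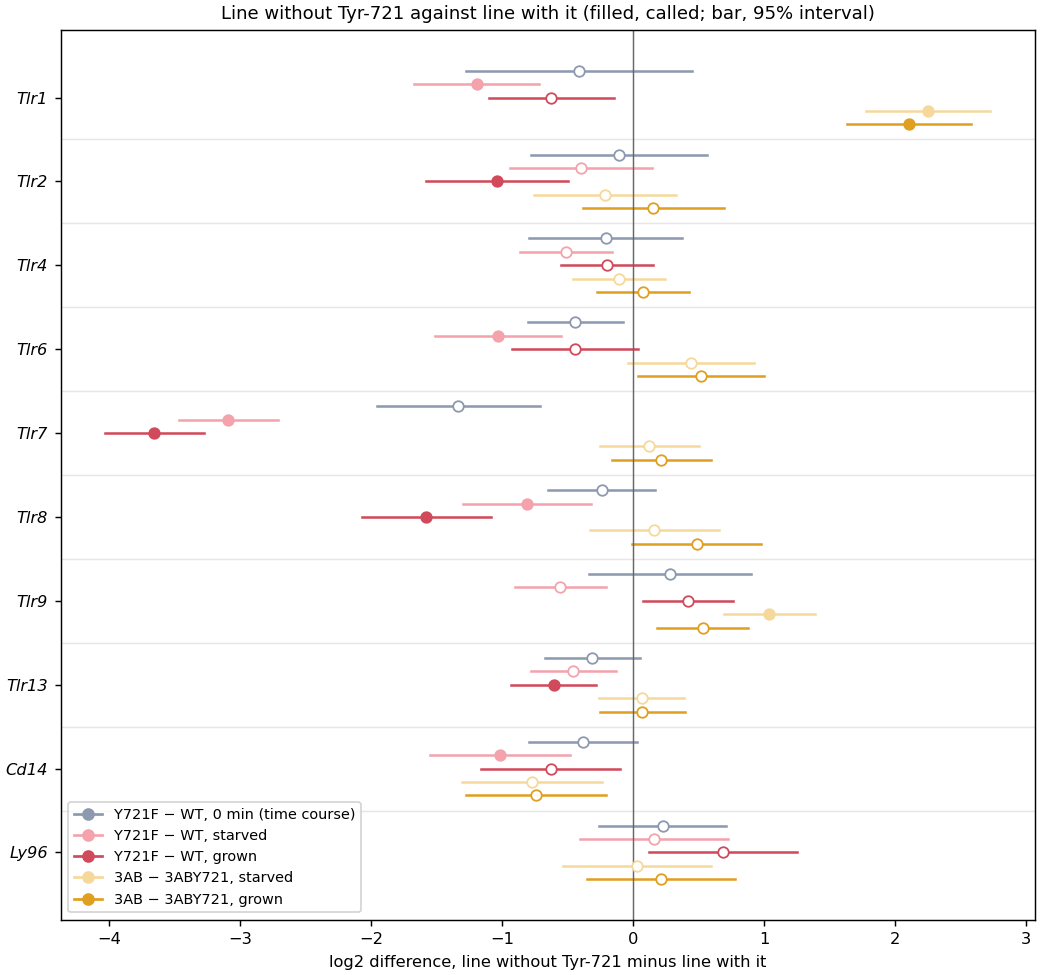
Log2 difference of a line without Tyr-721 minus a line with it, for each gene (rows) in 5 comparisons (colours), with 95% intervals from the limma fits and filled points where called. Tlr7 lies at -3.66 and -3.09 in Y721F minus WT and at 0.13 and 0.22 in 3AB minus 3ABY721, and Tlr1 at -1.20 and -0.63, where the Y721F signal was dim, against 2.25 and 2.11.

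The remaining line comparisons share these arrays. No member was called between 3ABY721 and WT, the lines with Tyr-721, by limma. In starved cells 2 of 10 and in grown cells 1 of 10 had an unadjusted p under 0.05, and 1.81% and 0.256% of all genes were called. The largest difference was that of Tlr2, 0.69 in starved cells (95% interval 0.14 to 1.23, adjusted p = 0.177). Between 3AB and Y721F, the lines without Tyr-721, 5 members were higher in starved 3AB and 7 in grown 3AB, where 7.61% and 7.87% of all genes were called either way and 5.08% and 4.65% higher. Tlr7 was higher by 2.94 (SE 0.18, adjusted p = 9.15e-08) and 3.80 (SE 0.18, adjusted p = 5.56e-09), and Tlr1 by 2.88 (SE 0.22, adjusted p = 1.08e-06) and 2.39 (SE 0.22, adjusted p = 4.88e-06), both against the dim Y721F signal of this gene. Tlr6 was higher by 1.27 and 1.08, Tlr9 by 1.30 and 0.66 and Tlr2 by 0.87 and 1.33 in starved and grown cells, and in grown cells alone Tlr8 was called at 2.18 and Tlr13 at 0.89. Of these the Tlr2 call in starved cells was lost when any 1 of its 4 arrays was left out (adjusted p up to 0.178), that of Tlr6 in grown cells without array I of either line (0.0623), and that of Tlr9 in grown cells without array II of Y721F or array I or II of 3AB (0.42 to 0.90, adjusted p up to 0.202).

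In the 5 other pathway lists every call between starved Y721F and starved WT was toward lower signal in Y721F. In starved cells 4 of 10 endosomal processing genes, 3 of 19 adaptors and kinases, 1 of 14 negative regulators, 1 of 8 chaperones and other coreceptors and 7 of 23 inducible targets were lower, and none was higher. In grown cells the counts were 2 of 10, 4 of 19, 2 of 14, 0 of 8 (3 with an unadjusted p under 0.05) and 6 of 23. Over all genes 7.66% were lower in starved and 4.94% in grown Y721F, so the counts of 1 of 14, 1 of 8 and 0 of 8 are no result about those lists. The median differences in starved cells were -0.46 for endosomal processing, -0.44 for adaptors and kinases and -0.49 for inducible targets, against -0.01 over all genes.

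Pld4 was lower in Y721F, with a difference of -1.68 in starved cells (SE 0.15, adjusted p = 4.89e-06) and -1.86 in grown cells (SE 0.15, adjusted p = 2.25e-06). At 0 min of the time course it was lower too (-0.95, SE 0.17, adjusted p = 0.0297). Irf7, the interferon regulatory factor downstream of the endosomal receptors, read 12 and 12.28 in starved WT against 10.74 and 10.80 in starved Y721F, a difference of -1.37 (SE 0.18, adjusted p = 0.000161). Trim30a, a negative regulator that acts on the TAB2 and TAB3 adaptors, was lower in both conditions (-1.90 starved and -1.84 grown, SE 0.18, adjusted p = 1.06e-05 and 1.47e-05), and Tab3 (-0.88) and Tab2 (-0.60) were themselves lower in starved cells. Myd88, the adaptor shared by nearly all Toll-like receptors, was lower in grown cells (-0.66, SE 0.18, adjusted p = 0.0343). It read 10.68 and 10.57 in grown WT against 10.34 and 9.60 in grown Y721F, so much of that difference rested on array II of Y721F.

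Among the inducible targets the chemokine gene Cxcl10 read 9.74 and 11.28 in starved WT against 7.43 and 7.71 in starved Y721F. The difference was -2.94 (SE 0.37, adjusted p = 0.000144) there and -3.08 (adjusted p = 0.000101) in grown cells. Acod1, which makes itaconate, differed by -2.92 and -2.21 in starved and grown cells, and Cxcl2 by -2.56 and -2.49, all called. The prostaglandin enzyme gene Ptgs2 was lower in grown cells (-2.28, adjusted p = 9.37e-05). In these comparisons the macrophage markers moved as well. Between starved and between grown cells, Fcgr1, an Fc receptor gene, differed by -4.38 and -5.16, Mertk by -1.75 and -2.78 and Itgam by -0.85 and -0.91, all called lower in Y721F. Lyz2 was called lower in grown Y721F (-1.54). Csf1r, the gene of the introduced receptor, differed by -0.24 and -0.57 with folds under 1.5. Of the 8 fibroblast markers Pdgfra was called higher in Y721F by 1.50 and 2.05. In starved cells 6 of the 8 had an unadjusted limma p under 0.05, and the list's median difference was 0.47, against -0.005 over all genes. In grown cells 1 of the 8 had such a p, and the median was 0.035, against 0.05 over all genes. The mean macrophage marker level was 11.54 in starved WT and 10.55 in starved Y721F, and 10.88 and 9.59 in grown cells, and its part in the receptor results was not tested.

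Between 3AB and 3ABY721 the pathway lists held few calls. Ly86, which encodes MD-1, a relative of MD-2 and partner of the Toll-like receptor homologue CD180, was higher in 3AB by 2.05 in starved cells (SE 0.41, adjusted p = 0.0316) and 2.15 in grown cells (SE 0.41, adjusted p = 0.0153). It read 10.24 and 10.40 in starved 3AB, 8.66 and 7.89 in starved 3ABY721, 4.66 and 6.42 in starved WT and 5.52 and 5.40 in starved Y721F. Among the inducible targets Il10 was higher by 0.73 in starved 3AB (adjusted p = 0.0484) and Ptgs2 lower in grown 3AB (-1.32, adjusted p = 0.0279). No endosomal processing gene, adaptor or negative regulator was called in this pair, where 2, 3 and 2 of them in starved and 3, 0 and 3 in grown cells had an unadjusted p under 0.05. Over all genes only 0.617% were called in starved and 1.18% in grown cells, so the missing calls are no result about those lists. Of the macrophage markers, Mertk was higher in 3AB by 1.44 and 1.41, and Fcgr1 by 0.90 and Aif1 by 2.08 in grown cells. The dendritic cell marker Clec9a was called higher by 0.89 in starved 3AB, on a dim signal that lay under 4.87 on 30 of the 32 arrays. No other dendritic cell marker was called, and the median difference of that list in starved cells was -0.025, against 0 over all genes. The part of these markers in the Tlr1 and Tlr9 results was not tested.

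The levels of the members over the 16 groups followed different patterns. The group means of Tlr7 spanned 4.50 on the log2 scale, those of Tlr8 3.76 and of Tlr1 2.88, while those of Tlr4 spanned 0.51. In order of the group means, Tlr7 was lowest in grown Y721F, then starved Y721F, then the 4 Y721F time course groups, and the remaining 10 groups lay together between 9.77 and 11.09 on single arrays. Tlr4 arrays lay between 9.78 and 10.63 throughout, with neighbouring groups overlapping. The highest correlations between members over the 16 group means were those of the neighbours Tlr1 and Tlr6 (Pearson r = 0.836) and of Tlr8 and Tlr13 (r = 0.773). That of the neighbours Tlr7 and Tlr8 was 0.659. Several pairs that are not neighbours lay above it, among them Tlr4 and Tlr6 (r = 0.765) and Tlr2 and Tlr7 (r = 0.730). These are descriptions over group means that share lines, experiments and the offset between the experiments.

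The genes outside the set whose 16 group means were most like each member's were named by the same measure, Pearson r. For Tlr7 they were Selplg (r = 0.978) and Slfn8 (r = 0.97), for Tlr8 Sort1 (r = 0.972) and Sirpa (r = 0.969), and for Tlr13 Ctdspl (r = 0.950) and Msra (r = 0.947). For Tlr1 they were Siglece (r = 0.937) and C1qa (r = 0.921), though C1qa reached only 0.191 over the 8 time course groups. For Tlr6 they were Wdr76 (r = 0.935) and Brd8 (r = 0.933), for Tlr9 Rell1 (r = 0.933) and Lacc1 (r = 0.916), for Tlr2 Tapbpl (r = 0.898) and Ptpn1 (r = 0.874), and for Cd14 the chemokine gene Cxcl2 (r = 0.913) and the transcription factor gene Ets2 (r = 0.889). For Ly96 they were Rpl19 and Brk1 (r = 0.992 each). Ly96 read 10.72 to 11.54 on the 16 time course arrays and 8.74 to 10.08 on the 16 steady-state arrays, so its correlation over all groups rested on that gap. Within the 8 steady-state groups it was 0.829 with Rpl19 and 0.960 with Brk1, and within the 8 time course groups 0.878 and 0.438.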

How the data were processed

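The deposited series table held 1 log2 signal per probe set and array (35556 probe sets, 32 arrays, no raw scanner files used here). That the values are on a log2 scale was read from their range. The authors' background correction, normalization and summarization are not stated in what was used here. Per the series text, the authors tested with limma, calling genes at an unadjusted p-value under 0.05 with a fold above 1.5. Probe sets were named from the platform annotation: 21789 named 1 gene, 1621 named several and were left out, and the highest mean probe set stood for each of 19938 genes (19856 matched by gene ID to RefSeq).

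Group means were fitted with limma 3.58.1 (R 4.3.3, lmFit and eBayes) to the 16 time course and the 16 steady-state arrays separately, each with 8 residual degrees of freedom, and p-values were adjusted over all genes by Benjamini-Hochberg in each of 26 comparisons. The script was tested on simulated data. Intervals are 95%. Same-numbered arrays of one line deviated together in the time course (correlations 0.487 to 0.734 in WT and 0.353 to 0.648 in Y721F), so block values are given beside results whose call they change. In the steady state they did not all do so (0.042 to 0.280 within a line, -0.328 to 0.283 between lines).

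The members and pathway lists were chosen with earlier results of these data known. The rule for named genes took all 10 members, up to 3 called genes per list and comparison with the largest difference, and, for members whose group means spanned over 1, the 2 genes of highest Pearson r. Ticam2, Slc15a4, Cnpy3, Pld4, Myd88, Irf7, Trim30a, Ly86, Il10 and Tlr3 fell under that rule. Tab2 and Tab3 were given as called genes of their list, and Csf1r, Saa3 and some markers were given outside the rule after their values were seen. Alternatives were a replicate block, quantile normalization, all 32 arrays in one fit, a filter on dim genes, the mean of probe sets, the unadjusted cutoff and leaving out each array.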

Additional observations from a re-analysis of the deposited data

Results flagged for a closer look

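One result stood out because starved Y721F against starved WT gave a different size in each experiment. For Tlr7 the gap was -3.09 in the steady-state arrays and -1.34 at 0 min of the time course, and their difference was -1.755 (SE 0.35, 95% interval -2.47 to -1.04, adjusted p = 0.0144 by limma over all genes). Under quantile normalization it was -1.64 (adjusted p = 0.027). Leaving out 1 array at a time gave -2.13 to -1.38, and 5 of 8 such fits missed the threshold, without array II of WT at 0 min (-1.38, adjusted p = 0.0897), array I (-1.88, 0.0503) or array II (-1.64, 0.0563) of Y721F at 0 min, array II of starved WT (-1.74, 0.0566) or array II of starved Y721F (-1.73, 0.0676). The comparison was added after the data were seen. The other 9 members were not called in it.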

How the results depend on the processing

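Of the 36 member and comparison pairs called, 19 were kept under every alternative and in every fit without 1 array, 17 were lost under at least 1, and 0 changed direction. In the Y721F time course 0 pairs were called, against 6 with the replicate block, 1 with all 32 arrays in one fit and 5 at the unadjusted cutoff. For Y721F against WT at 0 min the count went from 0 to 1 under each of the replicate block, quantile normalization, the fit of all 32 arrays and the unadjusted cutoff, in each case Tlr7. At the unadjusted cutoff the difference of responses gave 1 call and the difference of growth effects 6, both 0 otherwise. Without 1 array, the counts ranged from 0 to 5 in the WT time course, 0 to 0 in the Y721F time course, 0 to 1 at 0 min, 0 to 0 for the responses, 5 to 9 for grown against starved cells, 21 to 29 between lines and 0 to 3 for the growth effects. In the steady state the array number as a replicate block lost Tlr2 in grown against starved Y721F (adjusted p = 0.057) and added Cd14 there (0.0162), changing no other member's call, and among pathway genes it lost, for example, Slc15a4 in starved Y721F against WT (0.0527) and added Ly86 in grown against starved 3ABY721 (0.0316). Over all genes, 3ABY721 against starved WT gave 66 higher and 295 lower, and 65 and 112 under quantile normalization. The cause of these shifts was not tested. With 2 arrays a group, precision is limited by their number.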
